A study of Mus musculus with 32 samples.

Results

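This account covers 37 genes of the maternal decidua, of uterine natural killer (NK) cells and of leukocytes in *Commd10Null* mouse embryos. The members were chosen by name, and each was matched by its Ensembl identifier to 1 row of the raw count table, so that they are 37 of 55414 identifiers. By role they are 3 decidual prolactins, 9 NK cell genes, 5 genes of decidual stroma and steroid receptors, 5 pan-leukocyte genes, 5 genes of B cells and antigen presentation, 3 neutrophil granule genes and 7 macrophage and myeloid genes. The 3′ tags of messenger RNA (QuantSeq FWD, in which reads start near the poly(A) tail) were measured in whole embryos of 3 stages of gestation (E8.5, E9.5, E10.5). *Commd10Null* embryos were homozygous for B6.Cg-Commd10Tg(Vav1-icre)A2Kio/J, a line in which *Vav1-iCre* sits in the intron that separates exons 5 and 6 of *Commd10*, and WT embryos came from the same crosses of heterozygous littermates. The *Vav1* promoter is active in blood-forming cells, so *Commd10Null* embryos carried iCre together with the disrupted gene, and no group carried iCre with an intact *Commd10*. At E8.5 3 *Commd10Null* and 10 WT libraries were made, at E9.5 there were 3 *Commd10Null* and 9 WT libraries, and at E10.5 3 *Commd10Null* and 4 WT libraries. Embryos were freed from their yolk sacs before RNA extraction. The sources used here do not state whether a library holds 1 embryo or which embryos were littermates, so each library was counted as 1 replicate and p-values measure the spread between libraries.

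The decidua is the lining that the uterus forms around an implanted embryo. Its stromal cells respond to oestrogen and progesterone through *Esr1* and *Pgr* and secrete hormones of the prolactin family, and it is rich in uterine NK cells, which carry granzymes and perforin in their granules. A mouse embryo makes its first macrophages in the yolk sac, and these later spread through its tissues, so that macrophage genes can come from the embryo itself or from maternal tissue. NK cells and decidual stroma are maternal at these stages.

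The members lie partly in clusters of related genes. In GRCm38 (mm10) the 6 granzymes stand on the minus strand of chromosome 14 between positions 56117626 (the end of *Gzme*) and 56262260 (the start of *Gzmb*), the 3 C1q genes on the minus strand of chromosome 4 between 136880129 and 136898803, and the 3 prolactins on the plus strand of chromosome 13 between 27196659 and 27354216. The granzymes are shown by the 250 bases before their RefSeq start sites (GRCm38.p6), because they hold the 3 largest fold changes among the members tested at E8.5 and are copies of one another. RefSeq promoters were found for 27 of the 37 members. In the sequences below, written along the transcribed strand, capitals mark ACCACA or its reverse complement TGTGGT (letters that RUNX factors bind) and TGACGTCA (the cyclic AMP response element, its own reverse complement), which do not overlap here.
Gzmb, chr14:56262335-56262584: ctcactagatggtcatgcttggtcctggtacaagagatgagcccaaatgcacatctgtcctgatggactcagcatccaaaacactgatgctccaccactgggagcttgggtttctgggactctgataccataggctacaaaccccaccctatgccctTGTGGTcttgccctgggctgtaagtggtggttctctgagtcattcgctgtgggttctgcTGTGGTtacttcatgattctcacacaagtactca
Gzmc, chr14:56234658-56234907: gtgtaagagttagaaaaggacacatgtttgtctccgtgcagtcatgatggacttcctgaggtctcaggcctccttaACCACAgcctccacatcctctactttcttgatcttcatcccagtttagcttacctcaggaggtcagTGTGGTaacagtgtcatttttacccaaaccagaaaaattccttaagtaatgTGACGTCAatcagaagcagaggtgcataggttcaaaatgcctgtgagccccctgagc
Gzmd, chr14:56132594-56132843: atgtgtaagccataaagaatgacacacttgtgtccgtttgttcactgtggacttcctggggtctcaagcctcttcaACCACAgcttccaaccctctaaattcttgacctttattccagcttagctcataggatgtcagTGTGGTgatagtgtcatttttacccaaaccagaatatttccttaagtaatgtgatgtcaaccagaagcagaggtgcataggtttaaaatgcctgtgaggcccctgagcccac
Gzmf, chr14:56211408-56211657: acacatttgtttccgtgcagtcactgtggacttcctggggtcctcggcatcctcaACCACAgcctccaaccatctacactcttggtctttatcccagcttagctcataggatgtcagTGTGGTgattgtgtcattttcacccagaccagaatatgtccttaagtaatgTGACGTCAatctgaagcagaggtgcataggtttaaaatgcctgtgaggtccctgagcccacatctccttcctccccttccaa

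Each of the 6 granzyme promoters held 2 matches to the RUNX letters, which occur on either strand in 14% of 32851 promoters of this length. The letters TGACGTCA occur in 1.55% of them and stood in *Gzmc*, *Gzmf* and *Gzmg*. Between *Gzmc*, *Gzmd*, *Gzme*, *Gzmf* and *Gzmg* the promoters shared 79.2 to 95.2% of their bases in 10 pairs, while *Gzmb* shared 56.4 to 60.8% with the others in 5 pairs. Both motifs were chosen after the sequences had been seen, and a match is a description of letters, not a site. Over the last 500 bases of the annotated transcripts, where 3′ tags fall, 6 of the 37 members shared words of 75 bases with another gene, *Gzmd* with *Gzme* among them, so the split of counts between these copies is uncertain.

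Library totals were 7025188 to 9069005 counts (median 7971614.5), and 1 identifier without a symbol held 2.98 to 22.8% of them. The count of *Commd10* itself was 597 to 733 in *Commd10Null* and 301 to 383 in WT libraries at E8.5 (log2 fold change 1.02, SE 0.10, edgeR adjusted p = 0.000133), and it was also higher in *Commd10Null* at the later stages. Tags near the poly(A) tail lie outside the inserted intron and check neither the genotype nor the protein. Genes typical of early embryos (*Lin28a*, *Hoxb1*, *Tnnt2*, *Sox2*, *Meox1* and *Dll1*) together had 4559 to 5434 counts in *Commd10Null* and 6657 to 8443 counts in WT libraries at E8.5, and at least 2417 counts in each of the 32 libraries. At E10.5 they had 6966 to 7807 counts in *Commd10Null* and 2417 to 2954 in WT, with 3 of the 6 genes higher and 2 lower. The study describes *Commd10Null* embryos as stalled by E8.5 and as degrading, with signs of resorption, at E9.5 and E10.5. It also describes growth retardation at E8.5. Genotype and stage of development therefore cannot be told apart at E8.5 or at the later ages. Of the 37 members, 34 had a count in at least 1 library and 5 (*A2m*, *Ctla2a*, *Pgr*, *Coro1a* and *H2-Ab1*) in all 32. *Camp*, *Ngp* and *Ctla2b* had none. The last 500 bases of *Ctla2b* are 89.6% shared with other genes, so its 0 does not show absence.

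At E8.5 17 members had enough counts to be tested and 9 of them were higher in *Commd10Null* embryos (*Prl8a2*, *A2m*, *Ctla2a*, *Esr1*, *Srgn*, *Fcer1g* and the granzymes *Gzmc*, *Gzmd* and *Gzmf*), where 6.73% of all genes tested were higher. Of these 9 members 4 (*Prl8a2*, *A2m*, *Ctla2a* and *Srgn*) were tested at E9.5, and all 4 were higher there, where 20.2% of all genes were. *Prl8a2*, *A2m* and *Srgn* were tested at E9.5 because of their *Commd10Null* counts alone, so their direction there went with how they entered. At E10.5 *A2m*, *Ctla2a*, *Srgn* and *Fcer1g* were tested, and *Ctla2a* was higher, where 20.9% of all genes were. The rest of the 9 did not pass the filter on low counts at those stages, so these calls do not give how many of the E8.5 differences lasted. Of 14 members tested at E10.5, 7 (*Cd52*, *Coro1a*, *C1qa*, *C1qb*, *C1qc*, *Tyrobp* and *Csf1r*) were lower in *Commd10Null*, where 21.4% of all genes were. All of these except *Coro1a* passed the filter through WT alone, so their direction there went with how they entered. All 3 *Commd10Null* libraries at E8.5 had a count for 30 members, against 12 to 26 members (median 18) in the WT libraries. At E9.5 it was 13 to 24 members in *Commd10Null* and 14 to 22 in WT, and at E10.5 13 to 19 members in *Commd10Null* and 19 to 21 in WT. Detection over all identifiers was not compared, and the members were chosen with earlier results of these data known. The numbers of members detected therefore show nothing particular to this list. In whole embryos, fewer cells of a type and less RNA per cell cannot be told apart.

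**Figure D1:**
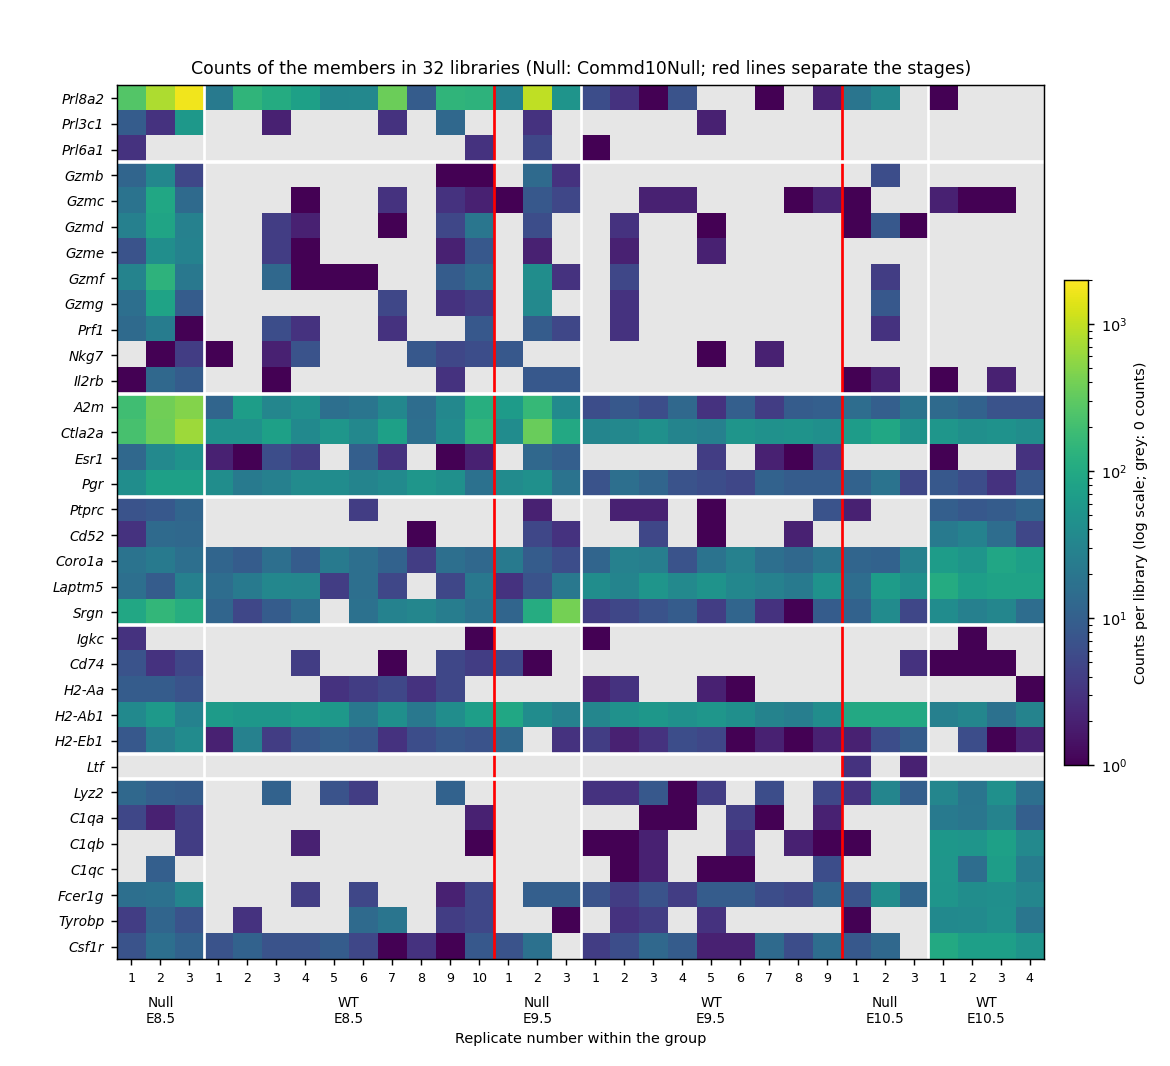
Counts of the 34 members that had any, by gene (rows, in the order of their roles, divided by white lines) and library (columns, by stage, with *Commd10Null* left of WT); colour gives the count on a log scale and grey is 0. The 3 *Commd10Null* libraries at E8.5 each have a count for 30 members, against 12 to 26 in WT, and the macrophage genes at the bottom stand out in the 4 WT libraries at E10.5. Detection over all identifiers was not compared.

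A gene was tested where it passed edgeR's filter on low counts (at least 10 counts at the median library size, a CPM of 1.24 to 1.27, in a number of libraries set by the smaller group), and was called where its p, adjusted over all genes tested, was at most 0.05. CPM are counts scaled to the size of each library with TMM factors. At E8.5 17 of the 33 members with a count were tested, of which 9 were higher and 0 lower in *Commd10Null*, where 6.73% of 13799 genes were higher and 6.86% lower. By edgeR no member was lower at an unadjusted p under 0.05 either, and none was lower by DESeq2. Their median log2 fold change was 2.95, against -0.0241 over all genes. Of these 17, *Gzmc*, *Gzmd*, *Gzmf*, *Esr1* and *Fcer1g* passed the filter through *Commd10Null* alone and so had to be higher there, and the count and the median support nothing about the list. At E9.5 9 of 33 members were tested, with 5 higher and 1 lower, where 20.2% of 13483 genes were higher and 17.4% lower. The median was 1.97 over the 9 members and 0.0241 over all genes, and *Prl8a2*, *A2m* and *Srgn* passed the filter through *Commd10Null* alone. *Coro1a*, *Laptm5* and *Csf1r* passed it through WT alone. At E10.5 14 of 30 were tested, with 2 higher and 7 lower, where 20.9% of 13522 genes were higher and 21.4% lower. The median was -1.43, against 0.00568 over all genes, and 9 of the 14 passed the filter through WT alone. All 7 lower members except *Coro1a* were among these, so the count and the median support nothing about the list.

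Whether the E8.5 difference lasted was tested as an interaction, the genotype difference at a later stage minus that at E8.5, in 1 model of all 32 libraries with 23 members. From E8.5 to E9.5 the difference grew for 1 member and shrank or turned for 4, where 6.24% of 15057 genes had a higher and 4.9% a lower difference. Between E8.5 and E10.5 it was higher for 1 member and lower for 13, against 10.3% and 8.29% of all genes. These counts do not say how often a rise at E8.5 ended. Of the 13, *Coro1a*, *Tyrobp* and *Csf1r* were tested at E8.5 and not called, and *Cd52*, *C1qa*, *C1qb* and *C1qc* were not tested there. Without a filter *Cd52* (edgeR adjusted p = 0.00234) and *C1qc* (0.0465, with counts in *Commd10Null* replicate 2 alone) were higher at E8.5. *C1qa* (0.082) and *C1qb* (0.423) did not pass in that fit. Of the 4 at E9.5, *Fcer1g* was called at E8.5, *Lyz2* was tested and not called, and *C1qa* and *C1qc* were not tested. At E10.5 *Cd52*, *C1qa*, *C1qb*, *C1qc*, *Tyrobp*, *Csf1r*, *Srgn* and *Fcer1g* passed the filter through WT alone, as *Gzmc*, *Esr1* and *Fcer1g* did at E8.5 through *Commd10Null* alone, so that the direction of these went with how they entered. Both tests share the E8.5 libraries.

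*Prl8a2*, which encodes the decidual prolactin-related protein of the stroma, was higher in *Commd10Null* at E8.5 and E9.5. Its counts at E8.5 were 259, 784 and 1679 in *Commd10Null* libraries, against 9 to 365 (median 92) in WT libraries. The groups overlapped through WT replicate 7, at 365. The log2 fold change was 3.20 (SE 0.63, edgeR adjusted p = 0.00477), and without *Commd10Null* replicate 3, which held 61.7% of the *Commd10Null* counts (exact 95% interval 59.8 to 63.5, for counting error only), it was 2.28 with an adjusted p of 0.0614.

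At E9.5 *Prl8a2* had 29, 975 and 51 counts in *Commd10Null* libraries, against 0 to 7 (median 1) in WT libraries. No WT library reached the lowest *Commd10Null* library, and *Commd10Null* replicate 2 held 92.4% of the counts (90.7 to 93.9). The gene had passed the filter at E9.5 through *Commd10Null* alone, so its direction there went with how it entered. The log2 fold change was 7.27 (SE 0.87, edgeR adjusted p = 1.82e-05), and 4.13 (adjusted p = 0.000451) without that library. At E10.5 the counts were 19, 35 and 0 in *Commd10Null* and 1, 0, 0 and 0 in WT, a ratio of 79 with a counting interval of 13.6 to 3180, with overlap through the *Commd10Null* library at 0. The gene did not pass the filter at that stage, and without a filter it was higher (edgeR adjusted p = 4.18e-07). WT counts were thus near 0 from E9.5 on, while 5 of the 6 later *Commd10Null* libraries had 19 counts or more. The genotype difference was larger at E9.5 than at E8.5 by 4.05 on the log2 scale (SE 1.34, edgeR adjusted p = 0.0464), a call that DESeq2 and most fits that left out a library did not make.

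The other prolactins were rarer. *Prl3c1* had 9, 3 and 58 counts in *Commd10Null* at E8.5, against 0 to 13 (median 0) in WT. *Prl6a1* had 3, 0 and 0 in *Commd10Null* and at most 3 in WT at that stage. Neither was tested, and at E10.5 both had no count in any library. *Commd10Null* replicate 3 was thus the highest E8.5 library for *Prl8a2* and for *Prl3c1*.

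**Figure D2:**
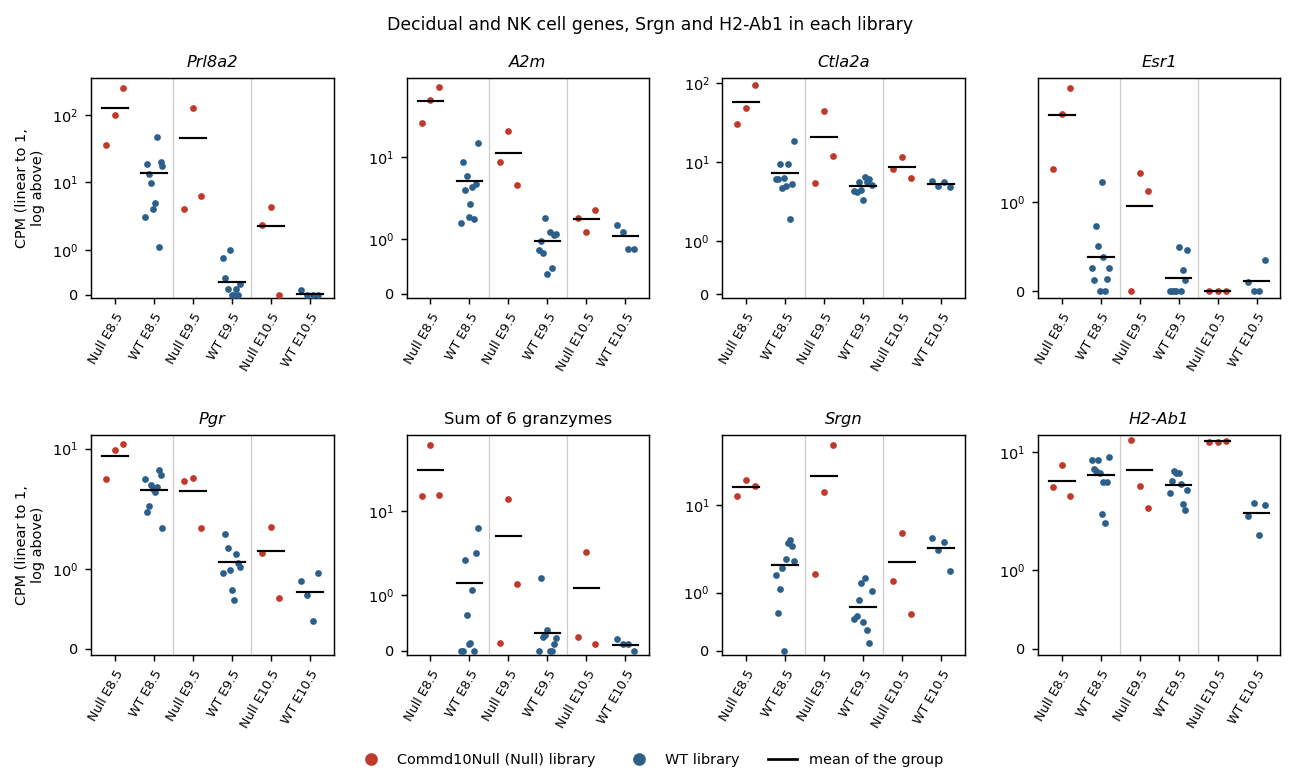
Level in CPM (vertical axis, linear up to 1 and logarithmic above) of 7 members and of the sum of 6 granzymes in each library, by stage, with *Commd10Null* left of WT; points are libraries and the black line is the group mean. *Prl8a2* counts near 0 in WT from E9.5 on go with 29, 975 and 51 counts in *Commd10Null* at E9.5, and *H2-Ab1* is apart at E10.5 alone, with 99 counts in each *Commd10Null* library.

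Granzymes are proteases that NK cells and cytotoxic T cells release into target cells. Summed over the 6 granzymes, E8.5 counts were 110, 474 and 106 in *Commd10Null* libraries, against 0 to 49 (median 3) in WT libraries. At E9.5 the sums were 1, 107 and 11 in *Commd10Null* and 0 to 13 in WT, and at E10.5 they were 2, 26 and 1 in *Commd10Null* and 0 to 2 in WT. The genotypes were apart at E8.5 and overlapped afterwards, when 1 *Commd10Null* library (replicate 2 of its stage) held most of the granzyme counts.

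*Gzmc*, whose product is granzyme C, had 18, 93 and 14 counts in *Commd10Null* at E8.5, against 0 to 3 (median 0) in WT. No WT library reached the *Commd10Null* range. The log2 fold change was 5.37 (SE 0.82, edgeR adjusted p = 0.00125) and 4.10 (adjusted p = 0.0186) without *Commd10Null* replicate 2. At E9.5 it had 1, 8 and 5 counts in *Commd10Null* and 0 to 2 in WT, and at E10.5 1, 0 and 0 in *Commd10Null* and 2, 1, 1 and 0 in WT.

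*Gzmf*, the granzyme with the most counts, had 30, 138 and 21 at E8.5 in *Commd10Null*, against 0 to 14 (median 1) in WT. All 3 libraries lay above WT, with 73% of the *Commd10Null* counts in replicate 2. Its log2 fold change was 4.00 (SE 0.90, edgeR adjusted p = 0.00996), and 2.80 (adjusted p = 0.122) without that library. *Gzmd* had 27, 85 and 28 counts in *Commd10Null* and 0 to 20 (median 0.5) in WT, a log2 fold change of 3.86 (SE 0.93, edgeR adjusted p = 0.0138) that also lost its call without *Commd10Null* replicate 2 (3.19, adjusted p = 0.0826) and was larger without WT replicate 10 (5.05, adjusted p = 0.00195).

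*Gzmb*, *Gzme* and *Gzmg* did not pass the filter at E8.5. *Gzmb*, the granzyme with the least similar promoter, had 12, 34 and 5 counts in *Commd10Null*, against 0 to 1 in WT, a ratio of 91 with a counting interval of 23.9 to 771. *Gzmg* had 16, 81 and 9 in *Commd10Null* and 0 to 5 in WT, and *Gzme* 7, 43 and 29 in *Commd10Null* and 0 to 8 in WT. Copies with and without TGACGTCA thus both had more counts in *Commd10Null* libraries. At E9.5 *Gzmf* had 0, 41 and 3 counts in *Commd10Null* and 0 to 5 in WT. *Gzmg* then had 0, 36 and 0 counts in *Commd10Null* and 0 to 3 in WT. Replicate 2 held all 36 of the *Gzmg* counts.

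The other NK members had lower counts. *Prf1*, which encodes perforin, had 14, 24 and 1 at E8.5 in *Commd10Null* and 0 to 8 in WT. *Il2rb*, a receptor chain for interleukins 2 and 15, had 1, 13 and 9 in *Commd10Null* and 0 to 3 in WT at E8.5, and 0, 8 and 8 in *Commd10Null* at E9.5 with no count in WT, at least 16.4-fold higher with 3 counts over the WT group as the floor. *Nkg7*, a granule protein, went the other way at E8.5, with 0, 1 and 4 counts in *Commd10Null* and 0 to 8 in WT, within overlapping ranges. Of 10 further NK genes none passed the filter. Of these *Klrd1*, an NK receptor, had 10, 3 and 4 counts in *Commd10Null* at E8.5 and 0 in every other library, and *Gzma* had 4, 21 and 26 in *Commd10Null* and 0 to 7 in WT at that stage. Summed over the E8.5 libraries, *Klrk1*, *Tbx21* and *Cd7* had 9, 7 and 3 counts in *Commd10Null* and 1, 0 and 0 in WT. *Klrb1c*, *Itgae* and *Fasl* went the other way, with 0 in *Commd10Null* and 4, 10 and 3 in WT. *Xcl1* had no count at E8.5. The NK receptor gene *Ncr1* had no count in any *Commd10Null* library. Of 10 T cell genes, the CD3 chains *Cd3d*, *Cd3e* and *Cd3g* and the co-receptor *Cd4* had no count there either. Genes of the T cell receptor did have counts there, with overlap between the genotypes. Over all *Commd10Null* libraries of a stage, *Trbc2* had 17 counts at E8.5 (WT 46), 9 at E9.5 (WT 20) and 1 at E10.5 (WT 10). *Trac* had 0 at E8.5 (WT 14), 9 at E9.5 (WT 16) and 11 at E10.5 (WT 14). *Trbc1* had 2 at E8.5 (WT 0). Summed counts of the T cell list were 107 to 152 in *Commd10Null* and 76 to 187 in WT at E8.5. The co-receptor *Cd8a* had 1, 0 and 40 counts in *Commd10Null* and 0 to 6 in WT at that stage. *Lck* and *Thy1* were the T cell genes tested, and of these *Thy1*, which is also expressed outside T cells, was higher at E9.5 (log2 fold change 2.92, SE 0.46, edgeR adjusted p = 0.000184) and E10.5 (3.43, SE 0.67, edgeR adjusted p = 0.000896).

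*A2m*, *Ctla2a* and, among the leukocyte genes, *Srgn* passed at both E8.5 and E9.5 whichever library was left out. At E9.5 *A2m* and *Srgn* had passed the filter through *Commd10Null* alone, so their direction there went with how they entered. *A2m*, a protease inhibitor that decidual cells make, had 197, 390 and 491 counts at E8.5 in *Commd10Null*, against 12 to 119 (median 33.5) in WT. The groups did not overlap, and the log2 fold change was 3.27 (SE 0.46, edgeR adjusted p = 0.00104). At E9.5 it had 65, 164 and 38 counts in *Commd10Null* and 3 to 13 (median 8) in WT, a log2 fold change of 3.58 (SE 0.40, edgeR adjusted p = 1.03e-05), or 2.81 (adjusted p = 0.000104) without *Commd10Null* replicate 2. At E10.5 the counts were 15, 10 and 18 in *Commd10Null* and 14, 11, 7 and 7 in WT, which overlapped (0.70, SE 0.48, edgeR adjusted p = 0.258). The genotype difference was smaller at E10.5 than at E8.5 by 2.59 on the log2 scale (log2 difference -2.59, SE 0.83, edgeR adjusted p = 0.0268).

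*Ctla2a*, an inhibitor of cathepsin L that is expressed in T cells and decidua, had 222, 375 and 649 counts in *Commd10Null* at E8.5, against 16 to 143 (median 47) in WT. Each *Commd10Null* library lay above WT, with a log2 fold change of 2.99 (SE 0.39, edgeR adjusted p = 0.000796). At E9.5 it had 40, 351 and 99 in *Commd10Null* and 27 to 53 (median 44) in WT, a log2 fold change of 2.07 (SE 0.39, edgeR adjusted p = 0.000776), and 0.83 (adjusted p = 0.0367) without *Commd10Null* replicate 2. Replicate 1 then lay within the WT range. At E10.5 the counts were 66, 93 and 50 in *Commd10Null* and 55, 44, 48 and 41 in WT, which overlapped, while in CPM the lowest *Commd10Null* library (6.29) stood above the highest WT library (5.80). The log2 fold change of 0.71 (SE 0.25, edgeR adjusted p = 0.0348) lost its call without any 1 of the libraries except *Commd10Null* replicate 3, for example at 0.45 (adjusted p = 0.183) without *Commd10Null* replicate 2. The difference at E10.5 was below that at E8.5 (log2 difference -2.29, SE 0.66, edgeR adjusted p = 0.0144).

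The steroid receptors differed in course. *Esr1*, the oestrogen receptor, had 13, 36 and 49 counts at E8.5 in *Commd10Null*, against 0 to 10 (median 2) in WT, without overlap. Its log2 fold change was 3.52 (SE 0.75, edgeR adjusted p = 0.00728), or 3.01 (adjusted p = 0.0558) without *Commd10Null* replicate 3. It had 0, 13 and 10 counts in *Commd10Null* and 0 to 4 in WT at E9.5, and none in *Commd10Null* at E10.5, where WT had 1, 0, 0 and 3. *Pgr*, the progesterone receptor, had 41, 76 and 75 counts in *Commd10Null* and 17 to 55 (median 38.5) in WT at E8.5, which did not pass (0.93, SE 0.31, edgeR adjusted p = 0.0569). At E9.5 it had 39, 45 and 18 counts in *Commd10Null*, against 5 to 16 (median 9) in WT. These did not overlap, and the log2 fold change was 1.97 (SE 0.36, edgeR adjusted p = 0.000548).

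Other genes moved in the same libraries, and their part in these results was not tested. Of 10 further decidual stroma genes, all tested, 3 were higher in *Commd10Null* at E8.5, where 6.73% of all genes were, with summed counts of 991 to 1901 in *Commd10Null* and 564 to 1162 in WT. Of these *Tdo2*, which encodes tryptophan dioxygenase of decidual cells, had 216, 421 and 543 counts in *Commd10Null* and 41 to 149 in WT (log2 fold change 2.27, SE 0.32, edgeR adjusted p = 0.00104). All 4 adult globin genes were higher at E8.5, with summed counts of 5662 to 7891 in *Commd10Null* and 136 to 2482 in WT. Of the 3 embryonic globin genes 2 were higher, with sums of 15120, 5043 and 0 in *Commd10Null* and 72 to 3423 in WT. Of 7 yolk sac endoderm genes, all tested, 1 was higher, with sums of 14978 to 21817 in *Commd10Null* and 1666 to 14073 in WT. Of 10 trophoblast genes 4 were tested and 1 was higher, with sums of 204 to 329 in *Commd10Null* and 53 to 212 in WT. Of 8 uterine epithelium genes 3 were tested and 0 passed at E8.5, with sums of 724 to 890 in *Commd10Null* and 704 to 1219 in WT.

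At E9.5 all 7 yolk sac endoderm genes were higher in *Commd10Null*, where 20.2% of all genes were, with sums of 946, 3240 and 28595 in *Commd10Null* and 175 to 825 in WT. Of 10 trophoblast genes 4 were tested, 3 were higher and 1 was lower, with sums of 83, 704 and 3052 in *Commd10Null* and 32 to 60 in WT. All 3 *Commd10Null* libraries were above WT for both tissues, replicate 2, with most *Prl8a2* and granzyme counts, among them.

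*Xist*, the RNA that coats the inactive X chromosome, is made in female cells, and genes of the Y chromosome in male cells. In 15 libraries Y-linked genes (*Ddx3y*, *Eif2s3y*, *Kdm5d* and *Uty*) had 402 to 1086 counts, and *Xist* had 0 to 2 counts in 12 of these. The other 3 were *Commd10Null* replicate 2 at E8.5 with 25 *Xist* and 474 granzyme counts, *Commd10Null* replicate 2 at E10.5 with 10 and 26, and WT replicate 10 at E8.5 with 13 and 49. Granzyme sums in the 12 were 13 or less. *Prl8a2* did not follow the same order. WT replicate 7 at E8.5, with no *Xist* count, had 365 *Prl8a2* counts, against 137 in WT replicate 10 at E8.5 and 35 in *Commd10Null* replicate 2 at E10.5. *Commd10Null* replicate 2 at E8.5 had 784. What the *Xist* counts stand for was not tested, and 1 WT library at E10.5 had neither *Xist* nor Y-linked counts.

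**Figure D3:**
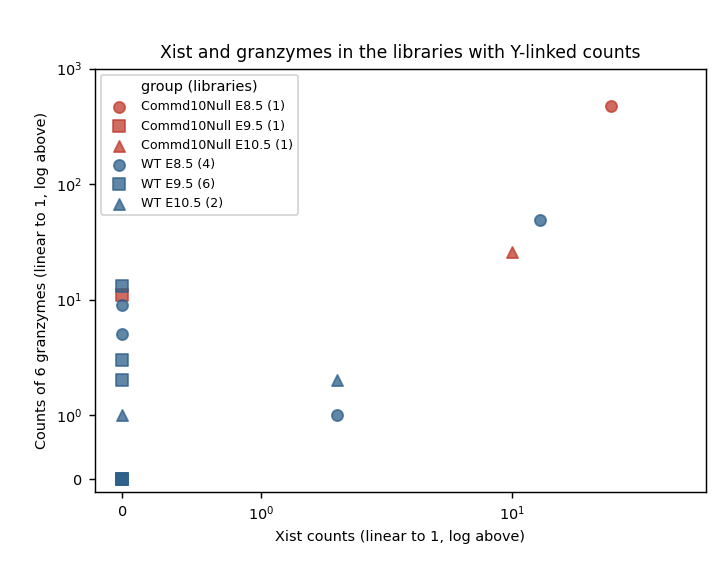
Summed counts of 6 granzymes (vertical axis) against the *Xist* count (horizontal axis, both linear up to 1 and logarithmic above) in the 15 libraries with Y-linked counts; each point is a library, with its genotype as the colour and its stage as the shape. The 3 libraries with 10, 13 and 25 *Xist* counts have 26, 49 and 474 granzyme counts, and the other 12 have 13 or fewer.

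Among the pan-leukocyte genes only *Srgn* passed as higher in *Commd10Null*, at E8.5 and at E9.5. At E9.5 it had passed the filter through *Commd10Null* alone, so its direction there went with how it entered. *Srgn*, the core protein of granule proteoglycans in blood cells, had 95, 152 and 115 counts in *Commd10Null* at E8.5, against 0 to 33 (median 16) in WT. The groups were apart, with a log2 fold change of 2.95 (SE 0.52, edgeR adjusted p = 0.00268). At E9.5 it had 12, 112 and 408 in *Commd10Null* and 1 to 12 (median 5) in WT, a log2 fold change of 4.86 (SE 0.61, edgeR adjusted p = 2.66e-05), or 3.41 (adjusted p = 0.000225) without *Commd10Null* replicate 3, the library with high yolk sac and trophoblast counts. At E10.5 the groups overlapped, with 11, 39 and 5 counts in *Commd10Null* and 40, 27, 33 and 15 in WT (-0.50, SE 0.56, edgeR adjusted p = 0.503). The difference fell by 3.47 on the log2 scale between E8.5 and E10.5 (log2 difference -3.47, SE 0.99, edgeR adjusted p = 0.0134).

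*Cd52*, a surface glycoprotein of lymphocytes and macrophages, and *Ptprc*, the pan-leukocyte phosphatase CD45, were higher in *Commd10Null* counts at E8.5 and lower at E10.5. *Cd52* had 3, 14 and 13 counts in *Commd10Null* at E8.5, against 0 to 1 in WT (not tested, ratio 107, counting interval 17.8 to 4370). At E10.5 it had none in *Commd10Null*, against 22, 29, 15 and 5 in WT, at least 16.2-fold lower in *Commd10Null* with 3 counts over that group as the floor (edgeR adjusted p = 0.000782), or at least 10.7-fold without *Commd10Null* replicate 1. *Ptprc* was tested at neither stage, with 7, 8 and 12 counts in *Commd10Null* and 0 to 4 in WT at E8.5, and 2, 0 and 0 in *Commd10Null* and 10, 8, 9 and 12 in WT at E10.5.

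*Coro1a*, an actin-binding protein of leukocytes, had 18, 22 and 16 counts at E8.5 in *Commd10Null* and 4 to 22 (median 12.5) in WT (0.62, SE 0.47, edgeR adjusted p = 0.402). At E10.5 it had 12, 11 and 28 in *Commd10Null*, against 67, 53, 90 and 74 in WT. All *Commd10Null* libraries lay below WT, with a log2 fold change of -1.92 (SE 0.36, edgeR adjusted p = 0.000741). *Laptm5*, a lysosomal membrane protein of blood cells, was the member lower at E9.5, with 3, 7 and 21 counts in *Commd10Null* and 23 to 52 (median 36) in WT (-1.83, SE 0.44, edgeR adjusted p = 0.0046, and -2.80 without *Commd10Null* replicate 3, adjusted p = 0.000244). It had passed the filter at E9.5 through WT alone, so its direction went with how it entered. It did not pass at E10.5, with 15, 66 and 44 in *Commd10Null* and 106, 71, 80 and 79 in WT (-0.86, SE 0.35, edgeR adjusted p = 0.0618).

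**Figure D4:**
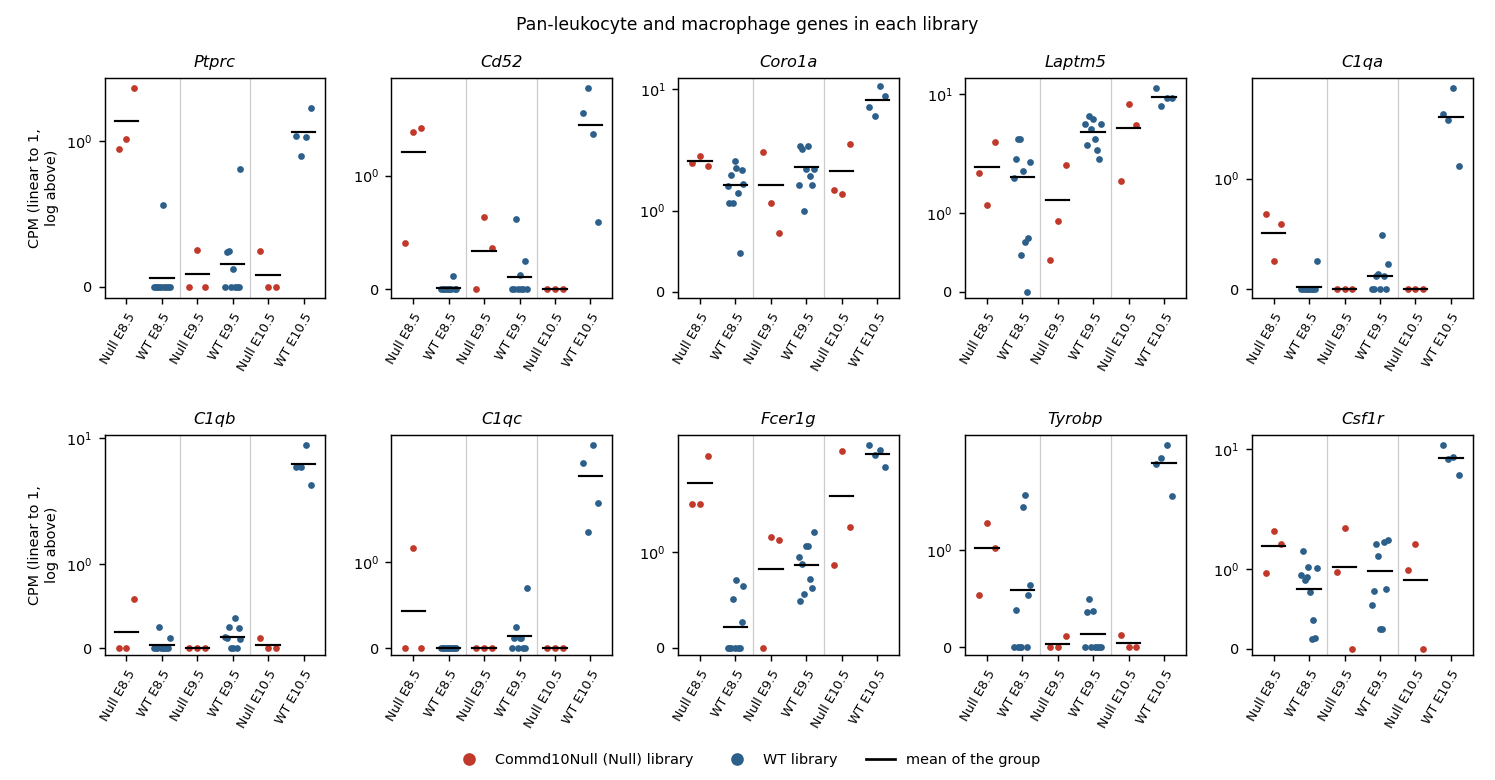
Level in CPM (vertical axis, linear up to 1 and logarithmic above) of 10 pan-leukocyte and macrophage members in each library, by stage, with *Commd10Null* left of WT; points are libraries and the black line is the group mean. At E10.5 the 3 *Commd10Null* libraries have 0 or 1 count of *C1qb*, against 36 to 75 counts in the 4 WT libraries.

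The 7 macrophage and myeloid members together had 45 to 67 counts in *Commd10Null* and 3 to 28 in WT at E8.5, 7 to 27 in *Commd10Null* and 13 to 41 in WT at E9.5, and 20 to 86 in *Commd10Null* and 190 to 380 in WT at E10.5. Their sums were thus highest in the WT libraries at E10.5. All 7 passed the filter at that stage through WT alone, so a lower call there went with how they entered. The C1q genes encode the chains of the complement protein C1q, which macrophages make. At E10.5 *C1qb* had 1, 0 and 0 counts in *Commd10Null*, against 56, 52, 75 and 36 in WT. The 2 ranges were far apart, and the WT level was 150 times that of *Commd10Null*, with a counting interval of 26.6 to 5940 (edgeR adjusted p = 2.82e-06). *C1qc* had no count in *Commd10Null*, against 55, 15, 68 and 24 in WT, at least 36.9-fold lower in *Commd10Null* (edgeR adjusted p = 0.000121, and at least 24.5-fold without *Commd10Null* replicate 1). *C1qa* had no count in *Commd10Null* either, against 23, 20, 30 and 10 in WT, at least 18.9-fold lower (edgeR adjusted p = 0.000211, and at least 12.5-fold without *Commd10Null* replicate 1). At the earlier stages WT counts were low too, and all WT libraries together had 3 counts of *C1qb* at E8.5 and 10 at E9.5.

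*Csf1r*, the receptor through which macrophages receive their growth factor, had 8, 13 and 0 counts in *Commd10Null* at E10.5, against 102, 73, 73 and 51 in WT. The groups did not overlap, with a log2 fold change of -3.25 (SE 0.53, edgeR adjusted p = 0.000222), and -4.03 (adjusted p = 0.000162) without *Commd10Null* replicate 2. At E8.5 it had 7, 16 and 11 counts in *Commd10Null* and 1 to 11 (median 7) in WT (1.01, SE 0.64, edgeR adjusted p = 0.308), so that the difference at E10.5 was below that at E8.5 (log2 difference -4.28, SE 1.05, edgeR adjusted p = 0.00437). *Tyrobp*, the signalling adaptor of myeloid and NK receptors, had 1, 0 and 0 counts in *Commd10Null* at E10.5, against 37, 38, 45 and 20 in WT, where the WT level was 95.7 times that of *Commd10Null* with a counting interval of 16.9 to 3810 (edgeR adjusted p = 2.23e-05).

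*Fcer1g*, the Fc receptor gamma chain of myeloid and NK cells, was the macrophage list's member that rose at E8.5. It had 16, 17 and 32 counts in *Commd10Null*, against 0 to 5 (median 0) in WT. The groups were apart and the log2 fold change was 3.75 (SE 0.90, edgeR adjusted p = 0.0134), but 3.94 (adjusted p = 0.0554) without *Commd10Null* replicate 1 and 3.27 (adjusted p = 0.0803) without replicate 3. At E10.5 it had 7, 41 and 12 in *Commd10Null* and 53, 42, 44 and 33 in WT (-0.95, SE 0.47, edgeR adjusted p = 0.121). *Lyz2*, the lysozyme of macrophages and neutrophils, had 13, 10 and 9 in *Commd10Null* and 0 to 11 in WT at E8.5, and 3, 32 and 10 in *Commd10Null* and 33, 19, 45 and 16 in WT at E10.5, and passed at neither. *Commd10Null* replicate 2 was the highest of its group at E10.5 for *Fcer1g*, *Lyz2*, *Laptm5* and *Srgn*, and without it these 4 passed as lower, which gave 11 lower members in place of 7.

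Of 10 further macrophage genes 5 were tested at E10.5, where 21.4% of all genes were lower in *Commd10Null*, and 4 were lower, among them *Cx3cr1*, the fractalkine receptor, with 1, 0 and 0 counts in *Commd10Null* and 110, 102, 97 and 77 in WT. Their summed counts were 13 to 43 in *Commd10Null* and 174 to 263 in WT. At E8.5 3 of these genes were tested and 0 passed, with overlapping sums of 28 to 94 in *Commd10Null* and 13 to 196 in WT. At E9.5 their sums were 43, 81 and 330 in *Commd10Null* and 19 to 61 in WT, highest in replicate 3, at a stage where *C1qa* and *C1qc* had no count in *Commd10Null*. *Lyve1*, a hyaluronan receptor of macrophages and of lymphatic and other endothelium, was the 1 tested there, with 8, 36 and 228 counts in *Commd10Null* and 5 to 40 in WT (log2 fold change 2.71, SE 0.66, edgeR adjusted p = 0.00464). The mannose receptor gene *Mrc1* then had 2, 38 and 76 in *Commd10Null* and 0 to 9 in WT. *Cx3cr1* went the other way at E9.5, with no count in *Commd10Null* and 62 over the WT libraries, all of which lay above *Commd10Null*. Counts of embryonic globin genes, made by yolk sac-derived red cells, were 17548 to 29020 in *Commd10Null* and 117064 to 185869 in WT at E10.5, and all 3 of these genes were lower.

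**Figure D5:**
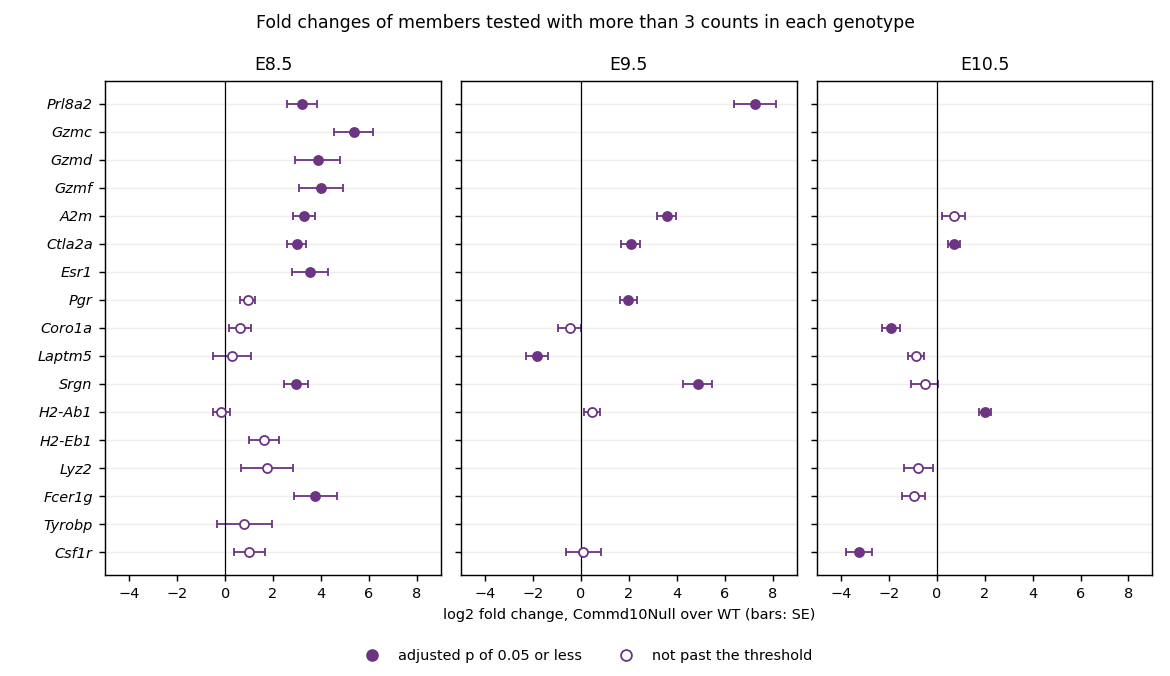
Log2 fold change of *Commd10Null* over WT (horizontal axis, with the standard error as a bar) of the members tested at each stage, other than those with 3 or fewer counts in a genotype; filled points passed the test. *Gzmc* has the highest value at E8.5 (5.37) and *Prl8a2* at E9.5 (7.27), and at E10.5 *Csf1r* and *Coro1a* lie left of 0 and *H2-Ab1* right of it.

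*H2-Ab1*, the beta chain of an MHC class II molecule, passed as higher in *Commd10Null* at E10.5 and at no other stage. It had 99 counts in each of the 3 *Commd10Null* libraries at that stage, against 27, 33, 17 and 30 in WT. The log2 fold change was 2.02 (SE 0.25, edgeR adjusted p = 1.68e-05). At E8.5 it had 37, 61 and 29 in *Commd10Null* and 21 to 71 (median 56) in WT (-0.17, SE 0.36, edgeR adjusted p = 0.8), and the difference between these stages passed (log2 difference 2.17, SE 0.53, edgeR adjusted p = 0.00381). Other class II genes did not pass the filter at E10.5. *H2-Aa* had no count in *Commd10Null* and 1 count in WT, and *Cd74*, the invariant chain, had 0, 0 and 3 counts in *Commd10Null* and 1, 1, 1 and 0 in WT. *H2-Eb1*, another class II beta chain, had 2, 6 and 9 counts in *Commd10Null* and 0, 6, 1 and 2 in WT at E10.5, in overlapping ranges. Without a filter its log2 fold change there was 1.39 and did not pass (edgeR adjusted p = 0.374). At E8.5 *H2-Eb1* had 8, 26 and 39 in *Commd10Null* and 2 to 28 (median 7.5) in WT (1.64, SE 0.63, edgeR adjusted p = 0.0919).

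The B cell member *Igkc* and the 3 neutrophil granule members were at or near 0. *Igkc*, the constant region of the kappa light chain, had 3, 0 and 0 counts at E8.5 in *Commd10Null* and at most 1 in any WT library, and the B cell gene *Ms4a1* had none in any library. Of the neutrophil granule genes *Ltf*, which encodes lactoferrin, had 3, 0 and 2 counts in *Commd10Null* at E10.5 and no other count, while *Camp* and *Ngp* had none. *S100a8*, a calcium-binding protein of neutrophils that is no member, had 29, 135 and 123 counts in *Commd10Null* and 0 to 25 in WT at E8.5 (log2 fold change 3.89, SE 0.81, edgeR adjusted p = 0.00656). Its partner *S100a9* had no count in *Commd10Null* at that stage. Summed over 9 neutrophil genes with *S100a8* included, counts were 33, 154 and 131 in *Commd10Null* and 0 to 28 in WT at E8.5. *S100a8* alone held most of these *Commd10Null* counts. At E10.5 the sums were 19 to 23 in *Commd10Null* and 39 to 61 in WT, when *Mpo*, the myeloperoxidase of granulocyte precursors, was lower (log2 fold change -2.28, SE 0.72, edgeR adjusted p = 0.02). Summed over 8 B and plasma cell genes, none of them tested, counts at E10.5 were 0, 6 and 0 in *Commd10Null* and 13 to 26 in WT.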

How the data were processed

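Messenger RNA of whole mouse embryos was measured in 32 libraries (QuantSeq 3′ mRNA-Seq FWD). The deposited table holds raw counts for each Ensembl gene, which the authors did not normalize. Reads had been trimmed (BBDuk in the methods, Trimmomatic 0.35 in the submitters' processing notes), and STAR had aligned them to mm10 coding regions. The sources used here do not give the counting tool or its strand setting, so overlapping and antisense genes cannot be told apart. Each column was tied to its library by the number in the labels, with 0 columns unmatched. Of 55414 identifiers, 52081 had a symbol. Chi-square per gene between libraries of a group was 3 to 81.6, above sampling noise.

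At each stage the *Commd10Null* and WT libraries were compared in edgeR 4.0.16 (quasi-likelihood test, TMM factors, default filter of 10 counts and 15 in total, Benjamini-Hochberg over all genes tested, threshold 0.05) in R 4.3.3 with limma 3.58.1, and the difference between stages as an interaction in 1 model of all libraries. The step was tested on simulated data. Levels are counts, or CPM with TMM factors over all libraries. Where a genotype had no count the fold is a bound, computed as if that group had 3 counts in all, and where it had 1 to 3 counts it is a ratio with an exact 95% counting interval, which covers counting error only, since no molecular identifiers are described. Precision is limited by 3 *Commd10Null* libraries per stage.

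Alternatives were the Wald test of DESeq2 1.42.0, RLE factors, no factors, no filter, a stricter filter (50 counts, 3 libraries), a single model of the 32 libraries, a block for the replicate number, leaving out the most abundant identifier, a minimum log2 fold change of 1, and leaving out each library in turn. All 37 members are named with values or within a count and range, and of other lists up to 3 genes per list and stage with the smallest p among those that passed, and defining genes with no count. Genes outside this rule (*Gzma*, *Klrd1* and *Cx3cr1* among them where untested) were named after their values had been seen. The members and lists were chosen with earlier results of these data known. A protein comparison of near copies was planned and replaced by shared 75-base words of transcripts. Sequences come from RefSeq (GRCm38.p6), positions from GENCODE on GRCm38 (Python 3.11.15, Biopython 1.88, matplotlib 3.10.9). The reads, RT-qPCR and histology of the study were not analysed here.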

Additional observations from a re-analysis of the deposited data

Results flagged for a closer look

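Dixon's ratio was applied to 40 sets of a tested member in a group of 4 to 10 libraries, and 2 sets held a library far from the others, where chance gives about 1 in 20. In WT replicate 8 at E8.5 *Coro1a* had 4 counts, the lowest of its group, where the next library had 9. In WT replicate 2 at E8.5 *H2-Eb1* had 28 counts, the highest of its group, where the next had 10.

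The genotype difference at a later stage was tested against that at E8.5 in 1 edgeR model, and these members passed. Each value is the later log2 fold change minus that at E8.5. At E9.5 it was 4.05 for *Prl8a2* and -3.82 for *Fcer1g*. For *Lyz2* (-6.53), *C1qa* (-6.82) and *C1qc* (-8.26) the *Commd10Null* libraries at E9.5 had no count, so the size of the fitted value depends on the prior count and is no bound.

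At E10.5 the difference was -2.59 for *A2m*, -2.29 for *Ctla2a*, -2.55 for *Coro1a*, -3.47 for *Srgn*, -4.72 for *Fcer1g*, -4.28 for *Csf1r* and 2.17 for *H2-Ab1*. For *Gzmc* (-6.56), *Esr1* (-6.58), *Cd52* (-12.61), *C1qa* (-10.89), *C1qb* (-8.68), *C1qc* (-13.05) and *Tyrobp* (-6.93) at least 1 of the 4 groups had 3 or fewer counts, and the sizes depend on the prior count. *Coro1a*, *Cd52*, *C1qa*, *C1qb*, *C1qc*, *Tyrobp* and *Csf1r* were lower in *Commd10Null* than in WT at E10.5 by the stage's own test, while *Ctla2a* and *H2-Ab1* were higher there, *A2m*, *Srgn* and *Fcer1g* did not pass, and *Gzmc* and *Esr1* were not tested at that stage.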

How the results depend on the processing

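Counts of members called moved with the filter and the fit more than with the tool. At E8.5 9 higher members became 17 of 33 without a filter, 5 of 6 with the stricter filter and 15 of 23 in 1 model of all libraries, and 8 to 10 when a library was left out, with 0 lower throughout. At E9.5 5 higher and 1 lower became 11 and 2 without a filter, 1 and 0 of 2 with the stricter filter, and 10 higher in 1 model of all libraries, and remained 5 and 1 in number when any library was left out. At E10.5 2 higher became 1 without factors, 4 without a filter, 1 in 1 model of all libraries and 1 with a minimum log2 fold change of 1, and 7 lower became 3 of 6 with the stricter filter, with 1 to 3 higher and 6 to 11 lower when a library was left out. The interaction at E9.5 gave 0 higher by DESeq2 and 0 lower with the stricter filter, and 0 to 1 higher and 2 to 6 lower when a library was left out. The interaction at E10.5 gave 6 lower with the stricter filter, and 1 higher and 9 to 14 lower when a library was left out. The stricter filter tests fewer members by construction, and the cause of the other moves was not tested.

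Same-numbered libraries deviated with correlations of -0.0657 to 0.111, and none was closest to its own number. These values gave no sign of pairing by number, but litters are not stated, so they cannot exclude it. Over all genes the replicate block left 273 higher and 334 lower at E9.5. With the replicate block E9.5 gave 3 higher and 0 lower (*Ctla2a*, *Pgr* and *Laptm5* did not pass), E10.5 1 higher, and the interaction at E9.5 0 higher. At E8.5 *Gzmf* had an adjusted p of 0.0593 with the block, and *Gzmd* 0.0657 by DESeq2. *Laptm5* at E8.5 was -0.40 with the block and -0.28 to 0.625 when a library was left out, lowest without *Commd10Null* replicate 3. *Csf1r* at E9.5 was -0.0587 without factors, -0.14 with the block, -0.0251 and -0.0257 without WT replicate 5 or 6, and -1.04 to 0.694 when a library was left out, lowest without *Commd10Null* replicate 2. *H2-Ab1* at E9.5 was -0.29 to 0.782, lowest without *Commd10Null* replicate 1. None of these 3 genes passed in those comparisons. *Pgr* at E8.5 passed under 6 of 21 alternatives, with adjusted p from 0.0386 to 0.243. Without factors the median of all genes shifted to -0.173 at E9.5 and -0.129 at E10.5, and all genes split into 1775 higher and 3530 lower at E9.5 (2722 and 2346 with TMM) and 2049 and 3803 at E10.5 (2828 and 2896 with TMM).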

Other observations

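Of the 10 further decidual stroma genes, 4 were higher and 2 lower in *Commd10Null* at E9.5, where 20.2% of all genes were higher and 17.4% lower. At E10.5 3 were higher and 2 lower, where 20.9% of all genes were higher and 21.4% lower. The embryo expresses some of these genes too, and in whole embryos the source of the counts cannot be told apart. *Tdo2* had 45, 200 and 238 counts in *Commd10Null* and 5 to 17 (median 8) in WT at E9.5, with the groups apart (log2 fold change 4.19, SE 0.37, edgeR adjusted p = 1.02e-06). *Bmp2*, a secreted growth factor that decidualizing stroma and the embryo both use, was higher at all 3 stages, with 650, 794 and 304 counts in *Commd10Null* and 95 to 216 (median 138) in WT at E9.5 (2.12, SE 0.24, edgeR adjusted p = 1.03e-05). At E10.5 it had 495, 610 and 470 in *Commd10Null* and 119, 73, 97 and 99 in WT (2.58, SE 0.15, edgeR adjusted p = 1.26e-08).

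*Lum*, an extracellular matrix proteoglycan, was lower at E9.5, with 21, 97 and 67 counts in *Commd10Null* and 112 to 304 (median 193) in WT (-1.65, SE 0.35, edgeR adjusted p = 0.0019). At E10.5 *Cryab*, a small heat shock protein, had 590, 1046 and 826 counts in *Commd10Null* and 309, 174, 229 and 232 in WT (1.95, SE 0.18, edgeR adjusted p = 1.12e-06). The homeobox gene *Hoxa10*, which uterine stroma and the posterior embryo both express, went the other way, with 31, 27 and 36 in *Commd10Null* and 227, 191, 145 and 164 in WT (-2.38, SE 0.20, edgeR adjusted p = 4.96e-07).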
